A study of Mus musculus with 6 samples.

Results

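The genes described here encode the machinery that carries proteins made in the cytosol into mitochondria. Members were all probe sets (groups of short DNA probes that read 1 transcript) annotated to exactly 1 gene whose symbol begins with Timm or Tomm, or to Pmpca, Pmpcb, Grpel1, Grpel2, Pam16, Dnajc19, Samm50, Chchd4 or Gfer. The rule found 64 of the 45101 probe sets of the array, for 32 genes. Dnajc19, Tomm5 and Tomm6 had only probe sets naming several genes and are not reported. RNA came from cultures of 3T3-L1, an established mouse cell line of fibroblast type used as a model of fat cell formation, and was hybridised to 6 one-colour arrays. Control cultures gave 3 arrays and cultures given resveratrol, a plant polyphenol, gave the other 3. Dose, duration, stage of differentiation and any genetic change are absent from the labels, and all 6 arrays come from this 1 cell line. Whether replicates were independent cultures is also not stated, so the p-values cover the spread among these arrays, which may be technical, and the number of arrays limits the precision.

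Most mitochondrial proteins are encoded in the nucleus and are imported after synthesis. The TOM complex of the outer membrane receives them, and the TIM23 and TIM22 complexes of the inner membrane then move presequence proteins into the matrix or insert carriers into the membrane. A motor built around mitochondrial Hsp70 pulls presequence proteins in, a peptidase removes their presequences, and a disulfide relay traps small cysteine-rich proteins in the intermembrane space. Fat cells depend on this supply because their mitochondria expand as they differentiate.

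Of the 30 import genes bright enough to be tested, 3 rose with resveratrol and 1 fell. Timm22, the channel of the carrier translocase, Timm50, a receptor of the presequence translocase, and Chchd4, the oxidoreductase of the disulfide relay, were 36.6, 26.8 and 27.1 percent higher in mean intensity. Pmpcb, the catalytic subunit of the presequence peptidase, changed by -27.5 percent. The other 26 genes did not pass the test. These shares, 10% higher and 3.33% lower, stand beside 5.32% and 5.21% of all 12630 genes tested. In counts this close to the background, the import genes as a list cannot be read as having changed.

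Each gene was represented by its probe set with the highest mean level, on log2 of intensity plus 16. This offset makes changes of dim probe sets look smaller than they are. A gene passed if its adjusted p was under 0.05 in a limma fit over all 27022 probe sets tested. All 58 import probe sets that were bright enough were fitted, and the remaining 6 lay under the filter. Counted by probe set, 4 rose and 2 fell, with a background of 3.95% and 4.22% of all probe sets tested. Most differences between groups were small. The median change of the 30 genes was 0.09 on the log2 scale, beside 0.02 over all genes tested, and was 0.053 without control replicate 3 and 0.057 without resveratrol replicate 2. Of these genes, 23 of 30 (76.7%) had a positive difference, beside 53.7% of all genes. The resveratrol values lay wholly above the control values for 10 genes (33.3%, beside 16.5% of all genes tested) and wholly below for 2 genes (6.67%, beside 13.7%). By array, the median of the 30 genes, taken against the control mean of each gene, was 0.04, 0.0038 and -0.06 for control replicates 1 to 3 and 0.10, 0.19 and 0.05 for resveratrol replicates 1 to 3. The groups did not overlap on this measure, but the highest control and the lowest resveratrol array were separated by less than the spread within either group.

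**Figure D1:**
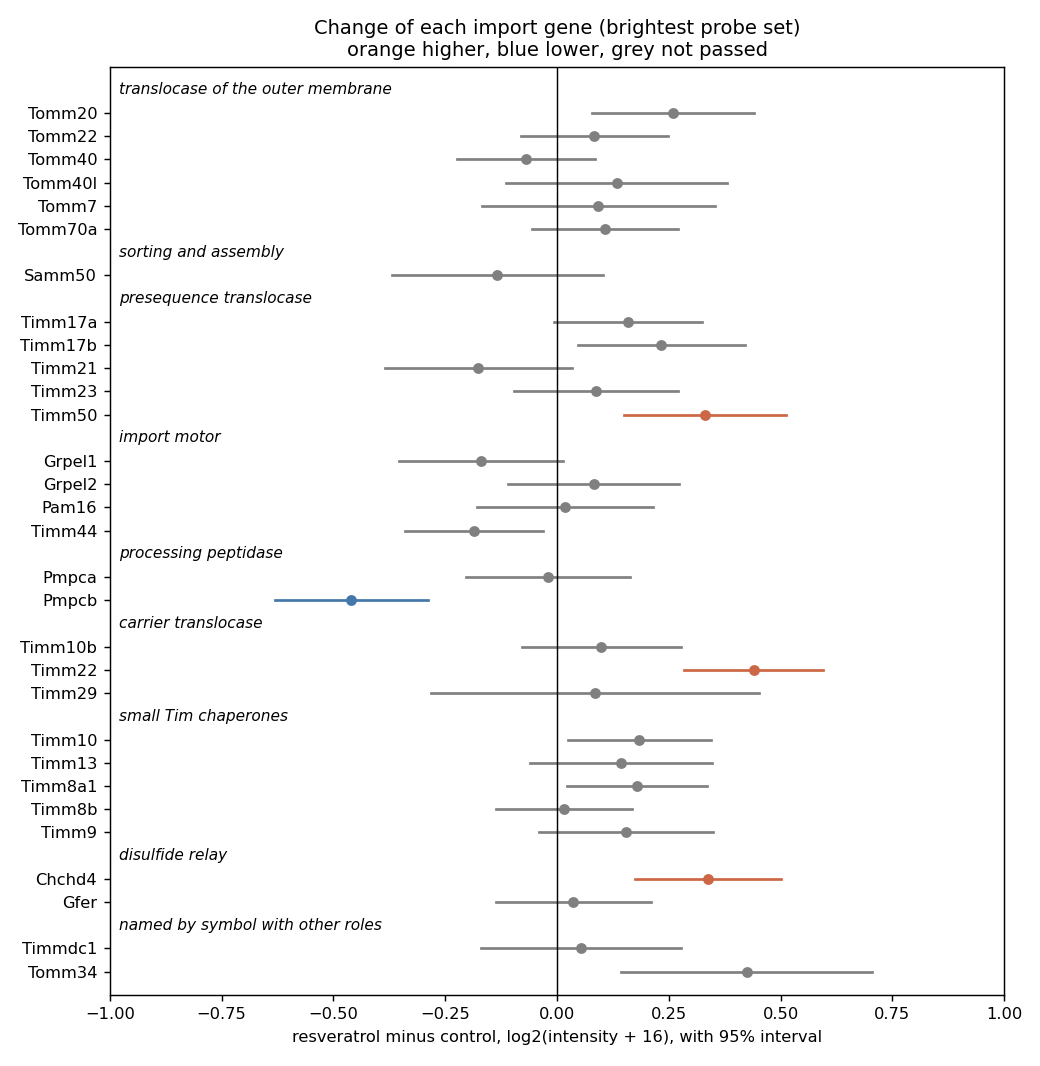
Difference between resveratrol and control on log2(intensity + 16) for the 30 tested import genes, grouped by role, as points with 95% intervals from the limma fit (n = 3 arrays a group). Timm22, Timm50 and Chchd4 (orange) passed as higher and Pmpcb (blue) as lower, and the grey genes did not pass.

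The 6 arrays stood apart in technical ways that bear on some values. Spiked-in bacterial and phage transcripts were brighter on control replicates 1 and 2 and resveratrol replicate 1, with means of 10.74 to 11.03 on the log2 scale, than on the other arrays, with 10.01 to 10.29. The column of control replicate 1 was written with other decimals, and its 18S ribosomal signal was 290.2 beside 102 to 133 on the other arrays. Here and below, a change among arrays of brighter spikes rests on 1 resveratrol array, and among those of dimmer spikes on 1 control array. Within the arrays of brighter spikes the median change of the import genes was 0.05, and within those of dimmer spikes 0.19. The same medians over all genes tested were 0.04 and 0.0045. Adipocyte markers checked the cell type: 5 had a probe set of their own. Their summed intensity was 25767 to 41074 on control and 25048 to 31893 on resveratrol arrays. In control and resveratrol, Fabp4 had means of 11745 and 9926, Adipoq 8620 and 6840, and Lpl 8703 and 7500, so these transcripts were bright in both groups. All 5 had negative differences, with Slc2a4 and Cidec lower and Adipoq, Fabp4 and Lpl not passing. Their median was -0.34 where spikes were brighter and 0.0053 where they were dimmer. Of 6 macrophage markers, summing to 277 to 346 on control and 372 to 422 on resveratrol arrays, Cd14 rose and Ptprc lay under the filter. Of 4 endothelial markers none passed and Pecam1 and Tek lay under the filter, with sums of 66.0 to 89.8 and 75.1 to 101. Of 5 preadipocyte and fibroblast markers, summing to 17918 to 21407 and 16269 to 19712, Thy1 rose and the rest did not pass. Negative differences were seen for 3 of the 5. Among these Col1a1 had -0.32 (adjusted p = 0.0757), with every resveratrol value below the controls. Of 4 skeletal muscle markers (120 to 169 and 111 to 131) and 3 smooth muscle markers (4105 to 4701 and 4491 to 5216) none passed, with Myog, Myh3 and Cnn1 under the filter. In bulk RNA a change in the share of cells of one type and a change in RNA per cell cannot be told apart, and the part these markers have in the import values was not tested.

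The promoters of the 4 genes that passed are shown because they are the places where transcription of these genes starts. Each window holds 250 bases before and 50 after the start site, from RefSeq on build GRCm38.p6, read 5′ to 3′ on the strand of the gene. Capitals mark matches, on either strand, to motifs of factors known to act on nuclear genes for mitochondrial proteins.
Timm22, chr11:76406675-76406974, strand +: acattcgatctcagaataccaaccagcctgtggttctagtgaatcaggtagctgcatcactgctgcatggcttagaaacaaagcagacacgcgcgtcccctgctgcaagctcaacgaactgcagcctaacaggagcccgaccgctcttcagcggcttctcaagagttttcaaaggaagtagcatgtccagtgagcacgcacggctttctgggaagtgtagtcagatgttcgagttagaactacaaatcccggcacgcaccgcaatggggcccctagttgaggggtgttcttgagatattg
Timm50, chr7:28311997-28312296, strand -: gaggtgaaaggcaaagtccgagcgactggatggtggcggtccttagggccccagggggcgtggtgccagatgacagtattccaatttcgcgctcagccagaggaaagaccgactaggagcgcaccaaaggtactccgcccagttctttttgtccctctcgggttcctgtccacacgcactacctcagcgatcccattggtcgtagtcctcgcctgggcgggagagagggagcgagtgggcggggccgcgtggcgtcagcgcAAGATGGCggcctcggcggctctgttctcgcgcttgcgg
Chchd4, chr6:91473374-91473673, strand -: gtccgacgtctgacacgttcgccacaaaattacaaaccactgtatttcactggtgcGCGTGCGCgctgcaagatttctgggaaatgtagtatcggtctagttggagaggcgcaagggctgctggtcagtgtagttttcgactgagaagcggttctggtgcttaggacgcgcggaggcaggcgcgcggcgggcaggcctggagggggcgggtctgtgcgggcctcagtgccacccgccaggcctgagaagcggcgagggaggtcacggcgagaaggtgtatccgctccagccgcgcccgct
Pmpcb, chr5:21736910-21737209, strand +: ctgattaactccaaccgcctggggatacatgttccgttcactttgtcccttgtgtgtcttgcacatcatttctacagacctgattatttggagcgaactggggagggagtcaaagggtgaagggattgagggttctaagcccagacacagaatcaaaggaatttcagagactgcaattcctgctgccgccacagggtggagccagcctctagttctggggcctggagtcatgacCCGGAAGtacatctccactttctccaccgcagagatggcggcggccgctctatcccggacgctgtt

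The motifs searched were NRF1 as GCNTGCGC, ETS (the site that GABP binds) as CCGGAAG, ERR as TCAAGGTCA, the E-box CACGTG and YY1 as AAGATGGC, and none of these 4 windows holds more than 1 match. The window of Chchd4 holds the NRF1 motif, from 194 to 187 bases before the start site. That of Timm50 holds the YY1 motif, from base 12 to base 19 after the start. The Pmpcb window holds the ETS motif, from 16 to 10 bases before the start, and the window of Timm22, the first listed of its 2, holds none of the 5. Windows were found for 28 of the 32 import genes, and none for Grpel2, Timm21, Tomm7 and Tomm40l. The ETS motif was in 13 of these 28 (46.4%) and in 9.12% of the 27025 promoters of the table. The NRF1 motif was in 6 (21.4%, beside 10.1%), the E-box in 5 (17.9%, beside 7.24%), and the ERR and YY1 motifs each in 1 (3.57%, beside 0.407% and 2.88%). Either the ETS or the NRF1 motif was in 17 import promoters (60.7%, beside 17.5%). The import promoters were richer in G and C, with a median of 60% beside 52.7% of all, and the part of base composition in these shares was not tested. Of the genes with the ETS motif, Pmpcb passed, Timm8a2 was too dim to be tested and the others did not pass. Of all tested import genes, 26 of 30 did not pass, and a link of the motif with the calls was not tested. Matches describe letters only and do not show that a factor binds.

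At the outer membrane, none of the 6 tested genes passed by its brightest probe set. Tomm20, the receptor that recognises presequences, came nearest. Its brightest probe set had 4159, 4140 and 3837 on the control arrays and 5041, 4829 and 4668 on the resveratrol arrays. Every resveratrol value lay above every control value, a log2 difference of 0.26 ± 0.08 (SE) with adjusted p = 0.0828. All 6 tested probe sets of Tomm20 had positive differences, from 0.19 to 0.44, and the groups lay apart for 5 of them. The fourth in brightness passed, with 1078, 1146 and 1061 in control and 1501, 1463 and 1516 in treated cells, a rise of 0.44 ± 0.07 (adjusted p = 0.00322). The gene did not pass in 13 of 16 alternative settings, with adjusted p up to 0.255. Tomm20 passed in the other 3, when its probe sets were averaged (0.30, adjusted p = 0.0128), with quantile normalization (0.34, adjusted p = 0.00246) and with the spike-signal split of the arrays as a block (0.29, adjusted p = 0.0176).

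Tomm70a, the receptor for carrier precursors handed over by cytosolic chaperones, had 4 tested probe sets. The 3 brighter ones lay apart in the same direction, with differences of 0.11, 0.28 and 0.19, and the dimmest, at a mean intensity of 61.5, had -0.18. None passed, the lowest adjusted p being 0.0846. Tomm22, the central receptor that docks the others, had 0.08 and 0.19 at its probe sets. Tomm7, a small subunit that affects the stability of the complex, had 4 probe sets between 0.02 and 0.29. The highest was at the dimmest, with a mean intensity of 48.0. Tomm40, the channel itself, had a difference of -0.07 with a 95% interval from -0.22 to 0.08. Tomm40l, a second form of the channel, had 0.13 and, at a dimmer probe set with a mean intensity of 75.9, 0.37, neither passing. Tomm20l, a gene related to Tomm20, was too dim to be tested, with 3.07 to 4.6 on control and 8.8 to 18.8 on resveratrol arrays, below the mean level of 20.3 that the filter asked for. Samm50, which inserts barrel-shaped proteins into the outer membrane, had 3 probe sets between -0.30 and -0.13, and none passed. The -0.30 was at a dim probe set with a mean intensity of 26.6, and the brighter ones had -0.13 and -0.21.

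In the presequence translocase of the inner membrane, Timm50 was the gene that passed. This receptor takes presequence proteins from TOM and keeps the channel closed when it is idle. Its brightest probe set had 338, 291 and 333 in control and 410, 408 and 401 in treated cells. The treated arrays lay close together and all above the controls, a rise of 0.33 ± 0.08 (SE, adjusted p = 0.0313). A dimmer probe set of the gene had 80.3, 177 and 162 in control and 151, 140 and 94.1 in treated cells, with a difference of -0.07, so the probe sets did not give the same answer. The call held in 7 of 16 alternative settings. Another setting left out probe sets that may also read other transcripts, of the same gene or another, with names ending in _a_at, _s_at or _x_at. There the gene was read by its dimmer probe set alone, at -0.07 (adjusted p = 0.922). The settings that lost the call included the spike-signal block (0.32, adjusted p = 0.069), a fit without a filter on level (adjusted p = 0.0535) and the mean of both probe sets (0.13, adjusted p = 0.619). It was also lost without control replicate 2 (0.27, adjusted p = 0.127) and without resveratrol replicate 1 (0.32, adjusted p = 0.103), 2 (0.33, adjusted p = 0.101) or 3 (0.34, adjusted p = 0.0677).

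The channel genes of this complex did not pass. Timm23, the channel subunit, had a difference of 0.09 with an interval from -0.10 to 0.27. Timm17a and Timm17b, alternative partners of Timm23, had 0.16 (adjusted p = 0.252) and 0.23 (adjusted p = 0.128), and for both genes the 3 resveratrol values lay above all control values. The second probe set of Timm17b had 0.06 and its groups overlapped. Timm21, which tethers the complex to TOM, had -0.18 (adjusted p = 0.321).

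Genes of the import motor had small differences in both directions. Timm44, the scaffold that binds Hsp70 at the channel exit, had 3 probe sets with negative differences of -0.19, -0.29 and -0.14, from the brightest down. At the brightest it had 1049, 1150 and 1121 in control and 959, 975 and 977 in treated cells. The groups lay apart at all 3 probe sets, and none passed, with adjusted p between 0.061 and 0.386. Grpel1, the nucleotide exchange factor of the motor, had -0.17 (adjusted p = 0.268). Its relative Grpel2 had 0.08 at 1 probe set and -0.21 at a dim one, and Pam16, which restrains the J-domain cochaperone, had 0.02. Hspa9, the mitochondrial Hsp70 itself and no member by the rule, had -0.25 (adjusted p = 0.163).

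Pmpcb fell. It is the subunit that cuts presequences off in the matrix, with zinc at its active site. Its brightest probe set had 2166, 2174 and 2009 in control and 1553, 1618 and 1435 in treated cells, which is 2116 ± 92.7 against 1535 ± 92.9 (SD, n = 3). Every treated array lay below every control array, a change of -0.46 ± 0.08 (SE, adjusted p = 0.00461). The other probe set had 1408, 1495 and 1286 against 988, 990 and 928, a change of -0.52 ± 0.08 (adjusted p = 0.00246). The brightest probe set had -0.48 among arrays with brighter spikes and -0.40 among the others. Pmpcb passed in all 16 alternative settings, with changes between -0.50 and -0.41 and adjusted p of at most 0.0465. Pmpca, the partner subunit that binds the substrate, had -0.02 (interval -0.20 to 0.16, adjusted p = 0.928) and -0.13 at its probe sets. The difference between the changes of the partners was not tested.

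**Figure D2:**
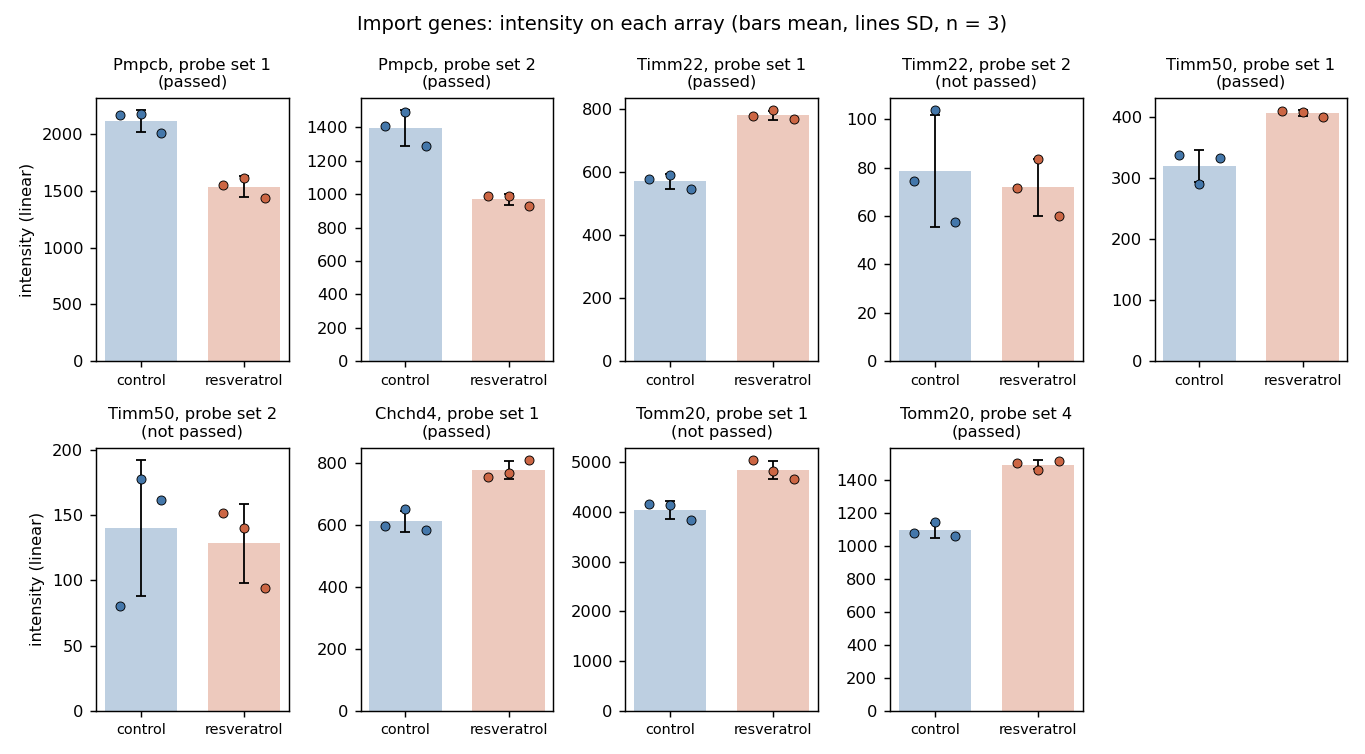
Linear intensity on each array for the probe sets of Pmpcb, Timm22, Timm50 and Chchd4 that were tested and for 2 of the 6 of Tomm20, the brightest and the one that passed (numbered by brightness within the gene). Points are arrays, bars means and lines SD of 3 arrays; at the 6 panels titled as passed no control point reaches the level of a resveratrol point, or the reverse for Pmpcb, while the dim probe sets of Timm22 and Timm50 overlap.

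In the carrier translocase, Timm22 was the gene that passed. It forms the channel that inserts metabolite carriers into the inner membrane. Its brightest probe set had 578, 591 and 545 in control and 778, 795 and 767 in treated cells, or 571 ± 24.0 against 780 ± 14.4 (SD, n = 3). The groups lay far apart, a rise of 0.44 ± 0.07 (SE, adjusted p = 0.00346), and the rise was 0.40 within the arrays of brighter spikes and 0.51 within those of dimmer spikes. A dim probe set of the gene, with 57.7 to 104 in control and 60.1 to 83.7 in treated cells, had -0.09 (adjusted p = 0.84). The gene passed in 15 of 16 alternative settings and did not pass with the mean of both probe sets (0.18, adjusted p = 0.384). Timm29, known as a subunit of the human complex, had 0.09 and 0.04, and Timm10b, which docks the small Tim chaperones there, had 3 probe sets between 0.10 and 0.16, none passing.

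The small Tim proteins shield membrane proteins as they cross the intermembrane space. All 5 tested genes had positive differences and none passed. Timm10 had 871, 858 and 810 in control and 987, 993 and 911 in treated cells, a difference of 0.18 (adjusted p = 0.163). Timm8a1, whose human counterpart is mutated in a deafness and dystonia syndrome, had 0.18 and 0.14 at its probe sets. For Timm10 and for the brighter probe set of Timm8a1 the groups lay apart. Timm9, the partner of Timm10, had 0.16, Timm13, the partner of Timm8a1, had 0.14, and Timm8b had 0.02. Timm8a2, a close relative of Timm8a1, was too dim to be tested, with at most 4.85 on any array.

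Chchd4 rose in the disulfide relay that folds these and other small proteins. It encodes the mouse counterpart of yeast Mia40, which puts disulfide bonds into its substrates. It had 597, 650 and 585 in control and 753, 767 and 809 in treated cells, or 611 ± 34.6 against 776 ± 29.0 (SD, n = 3). The groups lay apart, a rise of 0.34 ± 0.07 (SE, adjusted p = 0.0183), of 0.27 where the spikes were brighter and 0.42 where they were dimmer. The call was lost without an intensity trend (adjusted p = 0.0956) and without resveratrol replicate 1 (0.36, adjusted p = 0.0505), 2 (0.35, adjusted p = 0.0609) or 3 (0.31, adjusted p = 0.0629). Gfer, the oxidase that recharges Chchd4, had 0.04 (interval -0.14 to 0.21) and 0.08 at its probe sets.

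Both genes that carry an import symbol but act elsewhere were tested. Tomm34, a cytosolic cochaperone of Hsp70 and Hsp90, had 288, 269 and 259 in control and 365, 459 and 302 in treated cells. Its groups lay apart with uneven treated values, a difference of 0.42 ± 0.13 (SE, adjusted p = 0.0681). It passed without resveratrol replicate 3 (0.56, adjusted p = 0.0168) and with the brightest 40% of probe sets (adjusted p = 0.0455). Timmdc1, an assembly factor of respiratory complex I, had 0.05.

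**Figure D3:**
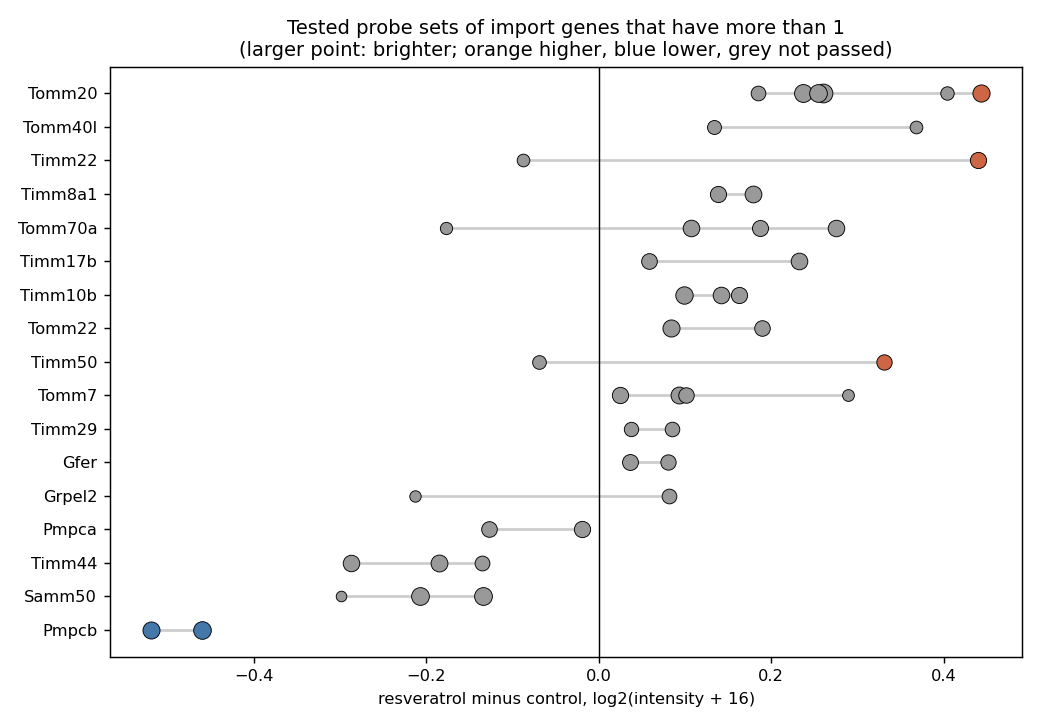
Difference between resveratrol and control on log2(intensity + 16) for every tested probe set of the 17 import genes with more than 1, with point size rising with mean intensity. The 6 probe sets of Tomm20 lie at 0.19 to 0.44 and the 2 of Pmpcb at -0.52 and -0.46, while Timm22, Timm50, Tomm70a and Grpel2 have probe sets on both sides of 0.

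Opposite signs occurred in 4 of the 17 genes that had more than 1 tested probe set, namely Timm22, Timm50, Tomm70a and Grpel2. In each of them the brightest probe set was positive and the dimmest negative. For the other 13 the probe sets had the same sign, although only those of Pmpcb and 1 of Tomm20 passed.

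Genes that work on the same proteins after or beside import were compared by lists chosen with earlier results of these data known. Of 18 tested mitochondrial chaperones and proteases, 3 fell (16.7%, beside 5.21% of all genes) and none rose, with a median of -0.10. Lonp1, the main protease of the matrix, changed by -0.55 ± 0.07 (SE, adjusted p = 0.000627), Clpx, the unfolding subunit of the ClpXP protease, by -0.71 and Dnaja3, a J-domain partner of Hspa9, by -0.40. Htra2, a protease of the intermembrane space, had 0.29 (adjusted p = 0.0558). Without probe sets that may also read other transcripts 1 of them fell, since the probe sets of Lonp1 and Dnaja3 were then left out.

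Of 20 genes of membrane insertion and cristae organisation, 5 fell (25.0%, beside 5.21% of all genes) and none rose, with a median of -0.07. Apool, Apoo, Immt and Chchd3, subunits of the MICOS complex that shapes cristae, changed by -0.60, -0.36, -0.36 and -0.28. Chchd6 and Micos13, also subunits, did not pass. Chchd6 had 0.29 (adjusted p = 0.0811), with every resveratrol value above the controls, and Micos13 had -0.21 (adjusted p = 0.202). The call of Apool was lost with averaged probe sets (adjusted p = 0.114) and that of Chchd3 in 9 of 16 alternative settings. Ghitm, an inner membrane protein that affects cristae, changed by -0.52 (adjusted p = 0.00579). Immt had 2847, 3140 and 2860 in control and 2317, 2218 and 2325 in treated cells. The insertase gene Oxa1l had -0.06, and Bcs1l, which inserts the Rieske protein into complex III, had 0.35 (adjusted p = 0.0511). The count of falls was 2 without control replicate 2, without resveratrol replicate 2 or without an intensity trend, and 3 without resveratrol replicate 1 or with averaged probe sets.

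Of 18 genes for proteins taken up through the disulfide relay, modified by it or binding Chchd4, 3 fell (16.7%, beside 5.21% of all genes). None rose, and the median was -0.18. Cmc2, a factor for cytochrome c oxidase, changed by -0.47 (adjusted p = 0.0165), Chchd10, a small cristae protein, by -0.67 from 67.2 to 36.4, and Aifm1, which binds Chchd4 in the intermembrane space, by -0.28 (adjusted p = 0.0365). Cox17, a copper carrier, had -0.26 (adjusted p = 0.0944). This count rested on single arrays: it was 0 without control replicate 1, resveratrol replicate 2 or resveratrol replicate 3, and 1 without control replicate 2 or resveratrol replicate 1. Chchd4 itself had the opposite sign, at 0.34, and the difference was not tested.

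Of 16 genes of cytosolic delivery and surveillance 2 rose (12.5%, beside 5.32%) and none fell, with a median of 0.03. Ubqln2, which holds membrane proteins in the cytosol, rose by 0.39 (adjusted p = 0.02) and Stip1, the adaptor between Hsp70 and Hsp90, by 0.31 (adjusted p = 0.0391). Mul1 and Marchf5, ubiquitin ligases of the outer membrane, had -0.27 (adjusted p = 0.222) and -0.19 (adjusted p = 0.25). The count was 0 without control replicate 2 or without any 1 of the resveratrol arrays, and 1 without control replicate 1 or 3. It was 4 with quantile normalization, 0 without a filter on level or without an intensity trend, and 1 with the spike-signal block, the replicate block or averaged probe sets.

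Among 16 transcriptional regulators of mitochondrial genes 4 fell (25.0%, beside 5.21% of all genes) and 2 rose (12.5%, beside 5.32%), with a median of -0.04. Gabpa, the DNA-binding subunit of the factor that recognises the ETS motif, had 316, 312 and 358 in control and 182, 214 and 217 in treated cells, a fall of 0.65 ± 0.10 (SE, adjusted p = 0.00233). The coactivator Ppargc1a changed by -0.60, and Ddit3 and Atf5, factors of the response to misfolded mitochondrial proteins, by -0.51 and -0.35. The call of Atf5 (adjusted p = 0.0483) was lost in 10 of 15 alternative settings, with adjusted p up to 0.173, and without an intensity trend 2 of this list fell. Myc rose from 372 ± 51.3 to 580.3 ± 46.2 (SD, n = 3), by 0.63 (adjusted p = 0.0038), and its partner Max by 0.45. Without control replicate 2 or 3, or without resveratrol replicate 1 or 2, 1 of this list rose. Nrf1, which binds the NRF1 motif, had means of 91.8 and 98.9, a difference of 0.09 (adjusted p = 0.727). Chchd3, Max and Atf5, which come after the 4 smallest p of their lists, were named after their values were seen. So were Oxa1l, Bcs1l, Chchd6, Micos13, Nrf1 and Hspa9.

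**Figure D4:**
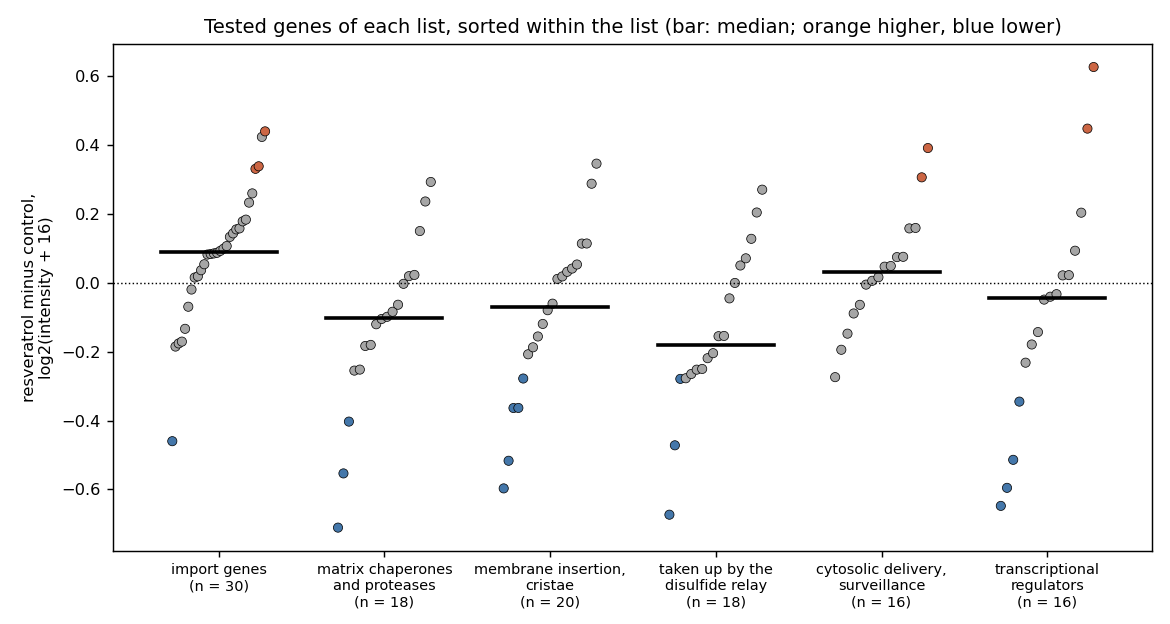
Difference between resveratrol and control on log2(intensity + 16) for each tested gene of the import list and of 5 other lists, sorted within the list, with the median as a bar. The import genes have a median of 0.09, the other lists have medians between -0.18 and 0.03, and blue and orange points are genes that passed as lower or higher; the lists were not tested against each other.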

How the data were processed

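Each deposited value is a linear intensity of 1 probe set, and every array has a mean of 150 once 2% is trimmed at each end, as the values themselves show. Total RNA was extracted with Trizol and labelled with biotin, per the labels' protocols; no source used here names the summarising software. After 64 control probe sets were removed, the platform annotation gives 1 gene for 34945, several for 932 and none for 9160. All 32 member symbols matched the RefSeq table.

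On log2(intensity + 16), the brightest 60% of probe sets by mean were kept. The group difference was fitted with lmFit and a trended eBayes (limma 3.58.1, R 4.3.3). Tests were 2-sided, and each adjusted p is a Benjamini-Hochberg value over all 27022 probe sets tested. The fit was also run on simulated data, whose outcome is not given here and lends no weight to the calls. The members, lists, motifs and alternatives, the spike-signal split included, were chosen with earlier results of these data known; running the alternatives on the other lists was added after seeing the data. Named are all members and, from each other list, up to 4 genes with the smallest p, with any exception stated. Figures were drawn with matplotlib 3.10.9 in Python 3.11.15.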

Additional observations from a re-analysis of the deposited data

How the results depend on the processing

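The median change of the import genes was 0.09 and stayed positive in all 16 settings, but leaving out 1 array moved it to between 0.053 and 0.13, with 0.053 without control replicate 3 and 0.057 without resveratrol replicate 2. In every setting 1 import gene fell, Pmpcb. The number of import genes that rose was 3, and 1 without an intensity trend. It was 4 with quantile normalization, where Tomm20 was added, and 4 with the brightest 40% of probe sets, where Tomm34 was added. With the spike-signal block it was 3, with Tomm20 in place of Timm50. With averaged probe sets it was 2, Chchd4 and Tomm20. Over fits leaving out 1 array it ranged from 1 to 3, the lowest without resveratrol replicate 1 or 2. The number of import probe sets that rose was 4, 7 with quantile normalization and 2 without an intensity trend. It was 2 without probe sets that may also read other transcripts, and 2 to 5 leaving out 1 array. The number that fell was 2, and 3 with the brightest 40% of probe sets. It was 1 without probe sets that may also read other transcripts, where fewer probe sets are tested. In that setting Timm50 was read by its dimmer probe set and turned to -0.069 (adjusted p = 0.922). The cause of the other moves was not tested. Over all probe sets, 2209 passed, 861 without an intensity trend and 1396 without a filter. The count was 1376 without probe sets that may also read other transcripts, and 1127 to 1956 leaving out 1 array.

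Among genes that passed, import calls were kept in 50 combinations of gene and setting, lost in 13 and turned in 1, and calls in the other lists were kept in 224 and lost in 72. Import genes that did not pass changed sign, still not passing, in 12 combinations. Deviations from the group means correlated at -0.06, -0.02 and 0.09 for replicate numbers 1, 2 and 3. For unlike numbers they correlated at -0.08 to 0.09. These values show no pairing by replicate number but cannot exclude it. With the replicate block, 3 import genes rose and 1 fell, and 1894 probe sets passed.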
